A study of Mus musculus with 12 samples.

Results

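The genes described here lie on mouse chromosome 14 beyond 40 Mb, from Tspan14 to Tmtc4. A gene belonged to the stretch if its start in the RefSeq gene table of assembly GRCm38.p6 lay at or past 40 Mb. Each gene stood by its probe set (a group of array probes for 1 transcript) with the highest mean over all arrays, and it was kept if that mean, on the log2 scale, was above that of an intensity of 123 units. That gave 252 genes of the 18193 with a probe set of their own, and of the 11321 above the same level limit. The stretch held 444 genes before the level limit, of which 192 were at or below it, and 8 further genes that the rule leaves out by name, 7 of them above the limit. The stretch was selected on the change between the lines B140P and B140H in these same arrays. Counts for that comparison, and for the difference between the lineages that contains it, are therefore descriptions and carry no test of the stretch.

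Total RNA of 4 mouse myeloid leukaemia cell lines was hybridised to 12 one-colour arrays, 3 arrays (A, B and C) per line. The lines came from BXH-2 mice, a recombinant inbred strain whose endogenous retrovirus gives rise to myeloid leukaemia. The parental lines, B117P and B140P, are labelled sensitive to cytarabine (Ara-C), a nucleoside drug that blocks DNA synthesis. B117H and B140H are highly resistant lines derived from B117P and B140P. The labels attach the same 2 statements to all 12 samples, a treatment with rising Ara-C concentrations and passage in drug-free medium, so they do not separate the parental lines from the resistant ones. No label says whether a line is 1 clone or whether the 3 arrays came from separate cultures, and p-values speak only to the spread among these arrays, which may be technical. Of 8 markers of myeloid leukaemia cells, 7 had a mean above the level limit, and line levels of these 8 ran from 6.02 to 14.6 (log2). A mean above the limit was also seen for 3 of 5 T cell, 2 of 3 B cell, 2 of 3 megakaryocyte and 2 of 3 endothelium markers. The same held for 1 of 2 erythroid and 1 of 4 stroma markers, so the limit does not separate cell types. Line levels reached 9.42 for the megakaryocyte and 8.72 for the endothelium markers. The 5 T cell markers stayed between 4.91 and 7.72 and the 4 stroma markers between 4.21 and 7.14. Of 3 measured B cell markers, 2 were raised in the B140 lines (Cd79b at 10.84 in B140P and 11.43 in B140H, against 6.74 in B117P). Ms4a1 was not, at 6.42 in B117P, 6.42 in B140P and 6.30 in B140H. Array medians lay between 117.8 and 131.5 intensity units. B140H array B stood apart from the other arrays, with the highest median (131.5) and a lower quartile of 58.6 against 50.8 to 53.7.

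Genes that share a stretch of chromosome need not share a function. This stretch carries genes of the ubiquitin system, of mitosis, RNA processing, mitochondria, membrane traffic and leukocyte signalling, beside the tumour suppressor gene Rb1 and the non-coding host gene Dleu2. Only RNA was measured here, and the number of DNA copies of the stretch in each line was not measured.

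Sequences of 2 kinds are shown, to set genes that moved in opposite directions side by side and to show what the stretch encodes beyond proteins. The first are the 250 bases before the start of 4 genes, taken from RefSeq (GRCm38.p6), 5′ to 3′ on the gene's own strand, which is the plus strand for Pcca and the minus strand for the other 3. Gpr183 (chr14:121965194-121965443) and Pcca (chr14:122484115-122484364) had the largest called falls in B140H among genes whose window lies wholly outside the gene's own span. Pspc1 (chr14:56778319-56778568) and Itm2b (chr14:73385290-73385539) had the only called rises. Capitals mark matches, on either strand, to 4 motifs: the core promoter motif spelled TATAAA, the Sp1-type GC motif spelled GGGCGG, the NF-Y motif spelled CCAAT, and the ETS factor motif spelled CCGGAAG. No 2 matches overlapped in these 4 sequences.
Gpr183: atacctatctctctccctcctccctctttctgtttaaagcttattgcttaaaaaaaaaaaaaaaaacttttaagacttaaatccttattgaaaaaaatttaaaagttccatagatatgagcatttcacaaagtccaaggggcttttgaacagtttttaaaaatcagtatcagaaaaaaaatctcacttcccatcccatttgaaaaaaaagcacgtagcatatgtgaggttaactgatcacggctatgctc
Pcca: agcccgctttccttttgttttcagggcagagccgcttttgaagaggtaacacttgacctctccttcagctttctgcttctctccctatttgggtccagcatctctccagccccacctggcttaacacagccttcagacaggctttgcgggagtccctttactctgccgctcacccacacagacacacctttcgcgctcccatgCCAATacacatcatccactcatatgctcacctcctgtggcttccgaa
Pspc1: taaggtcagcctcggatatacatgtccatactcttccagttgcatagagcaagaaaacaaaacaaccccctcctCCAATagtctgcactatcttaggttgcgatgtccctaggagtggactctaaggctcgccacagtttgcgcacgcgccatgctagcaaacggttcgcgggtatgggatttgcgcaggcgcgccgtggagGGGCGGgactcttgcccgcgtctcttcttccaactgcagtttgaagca
Itm2b: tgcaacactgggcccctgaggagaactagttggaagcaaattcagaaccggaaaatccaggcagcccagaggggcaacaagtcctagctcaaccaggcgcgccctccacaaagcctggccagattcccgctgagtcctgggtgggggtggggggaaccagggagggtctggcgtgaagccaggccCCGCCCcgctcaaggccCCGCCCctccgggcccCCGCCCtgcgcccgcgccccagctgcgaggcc

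The Gpr183 window held none of these letter strings and had a GC content of 32.0%, with 2 CpG pairs. The Pcca window held 1 NF-Y motif, the Pspc1 window 1 GC motif and 1 NF-Y motif, and the Itm2b window 3 GC motifs, with GC contents of 53.6%, 54.4% and 68.8%. Of the 252 genes, 182 had a promoter in the table, and for 94 of these the window lay outside the gene's span. A GC motif stood in 56.6% of the 182, against 58.5% of the 9198 promoters of all genes above the level limit and 32.9% of all 27025 promoters. An ETS motif stood in 18.1%, 14.2% and 7.05% of these sets, an NF-Y motif in 35.7%, 36.1% and 34.5%, and a core promoter motif in 6.04%, 6.41% and 13.0%. The median GC content was 59.2% in the stretch and 59.6% over all genes above the level limit. A match is a description of the letters and not a binding site.

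Dleu2 (chr14:61602836-61682373), a long non-coding RNA gene, holds the hairpins of 2 microRNAs known as brakes on the cell cycle and on survival proteins. Their mature 5′ arms, from RefSeq, share a seed (bases 2 to 8, in capitals).
miR-15a-5p: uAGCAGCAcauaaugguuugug
miR-16-5p: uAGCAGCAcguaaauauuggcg
The 3′ arms were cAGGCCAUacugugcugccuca for miR-15a-3p and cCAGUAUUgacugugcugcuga for miR-16-1-3p, with seeds of their own. The arrays measured the host transcript and not the mature microRNAs. Dleu2 read 7.46, 6.72 and 6.85 in B117P and 7.32, 6.87 and 6.86 in B117H (log2 level, arrays A, B and C). It read 8.69, 8.08 and 7.93 in B140P and 8.31, 7.43 and 7.38 in B140H. All B140P arrays lay above all B117P arrays, by 1.22 ± 0.27 (log2 difference ± SE, limma adjusted p = 0.00629), while the B140H arrays overlapped those of B140P (−0.53 ± 0.27). Letter by letter, each B140H array read below the B140P array of the same letter.

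The stretch stood higher on every B140P array than on the arrays of the other lines. For each array, every gene's deviation from its own 12-array mean was taken and the median over genes computed. The median of the 252 genes was 0.21, 0.20 and 0.17 on the B140P arrays A, B and C. It was −0.11, −0.045 and −0.071 on the B140H arrays, between −0.11 and −0.045 on the B117P arrays, and between −0.036 and −0.022 on the B117H arrays. B140H and B117P thus overlapped, B117H lay just above both without overlap, and B140P stood above all 3. The 115 genes of chromosome 14 that start before 40 Mb read between −0.003 and 0.040 on the B140P arrays and between 0.028 and 0.086 on the B140H arrays. Over all 11321 genes the array medians stayed between −0.035 and 0.064, the highest being B140H array B. In bulk RNA, fewer cells of a kind and less RNA per cell cannot be told apart.

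**Figure D1:**
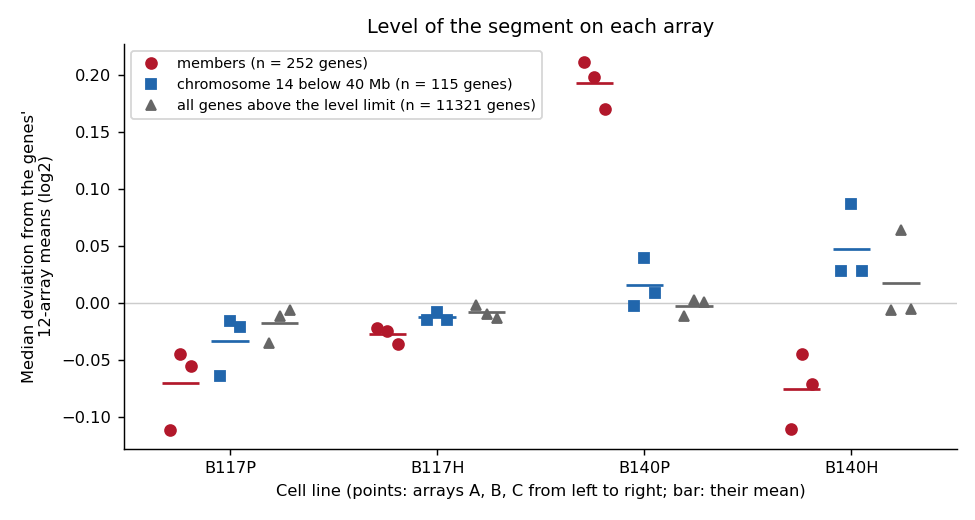
Median log2 deviation from each gene's 12-array mean, on the vertical axis, for the 252 genes beyond 40 Mb, the 115 chromosome 14 genes before 40 Mb and all 11321 genes; each point is 1 array and each bar the mean of 3. The 252 genes sit between 0.17 and 0.21 in B140P and at or below −0.022 in the other lines.

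In B140H the genes of the stretch were mostly lower than in B140P. The median change was −0.34 log2 units (1.26-fold), with quartiles of −0.54 and −0.09, and 206 of 252 genes were below 0. The limma fit called 94 of them lower and 2 higher at an adjusted p under 0.05, where 5.64% of all 11321 genes were called lower and 3.97% higher. For 157 genes the 3 B140H arrays all lay below the 3 B140P arrays, against 14.6% of all genes. The median change over all genes was 0.04, and over the 115 genes before 40 Mb it was 0.02, with 6 called lower and 1 higher. Taken array by array against the B140P mean, the stretch's median was −0.34 for array A, −0.34 for array B and −0.31 for array C. The median change stayed between −0.35 and −0.31 when any 1 of the 12 arrays was left out, array B of B140H included (−0.33). Markers of cell type moved in this pair too. The myeloid marker Mpo read 9.54 in B140P and 7.13 in B140H, and the B cell markers Cd79a and Cd79b read 8.25 and 10.84 in B140P and 9.12 and 11.43 in B140H. Ms4a1, also a B cell marker, did not rise (6.42 in B140P and 6.30 in B140H). Over the 8 myeloid markers the median level was 9.78 in B140P and 8.78 in B140H, but they did not fall together. Ptprc (13.33 and 13.12) and Itgam (6.30 and 6.02) also read lower in B140H than in B140P. Spi1 (11.31 and 11.38), Elane (7.02 and 7.18), Lyz2 (6.75 and 6.97) and Cebpa (10.03 and 10.39) read higher, and Prtn3 stayed at 12.08. The part of these markers in the change of the stretch was not tested. The number of called genes moved more than the median change. It was 57, 51 and 55 without B140P array A, B or C, and 64 without B140H array B.

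In the median, dim genes showed little of this shift. The 60 genes with a mean level of at most 8 had a median change of 0.06, as did all 2767 genes at that level. Of the 60, 6 (10%) were called lower, against 3.61% of all genes at that level. The 99 genes between 8 and 10 had a median of −0.42, and 49 were called, all lower, against 6.97% of all genes there called lower. Among the 93 genes above 10 the median was −0.35. There 39 were called lower and 2 higher, against 5.6% and 4.75% of all genes at that level. The 192 genes of the stretch at or below the level limit had a median of 0.07, as did all 6872 genes of that kind. Among all genes between 8 and 10, and among those above 10, the median was 0.02. Above a level of 8, then, 183 of 192 genes lay below 0, against 45.8% of all 8554 genes at that level.

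The 9 genes above a level of 8 that were not lower were chosen for mention after their values were seen. They were Pspc1, Itm2b, Rb1, Ccdc122, Nkx2-6, Tsc22d1, Dmtn, Fitm1 and Kbtbd7. Pspc1 (chr14:56722441-56778318) encodes a protein of paraspeckles, nuclear bodies that retain RNA. It read 10.59, 11.01 and 11.03 in B140P and 11.36, 11.45 and 11.51 in B140H, a change of 0.56 ± 0.12 with no overlap. Itm2b (chr14:73362226-73385289), which encodes the membrane protein BRI2, read 13.31, 13.02 and 13.11 in B140P and 13.72, 13.54 and 13.61 in B140H. Its change was 0.47 ± 0.12, and that of a further, dimmer probe set was 0.50. Rb1, whose protein holds back entry into S phase, read 10.94, 10.80 and 10.81 in B140P and 11.23, 11.13 and 11.35 in B140H. The Rb1 arrays did not overlap, but its change of 0.39 ± 0.13 was not called.

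**Figure D2:**
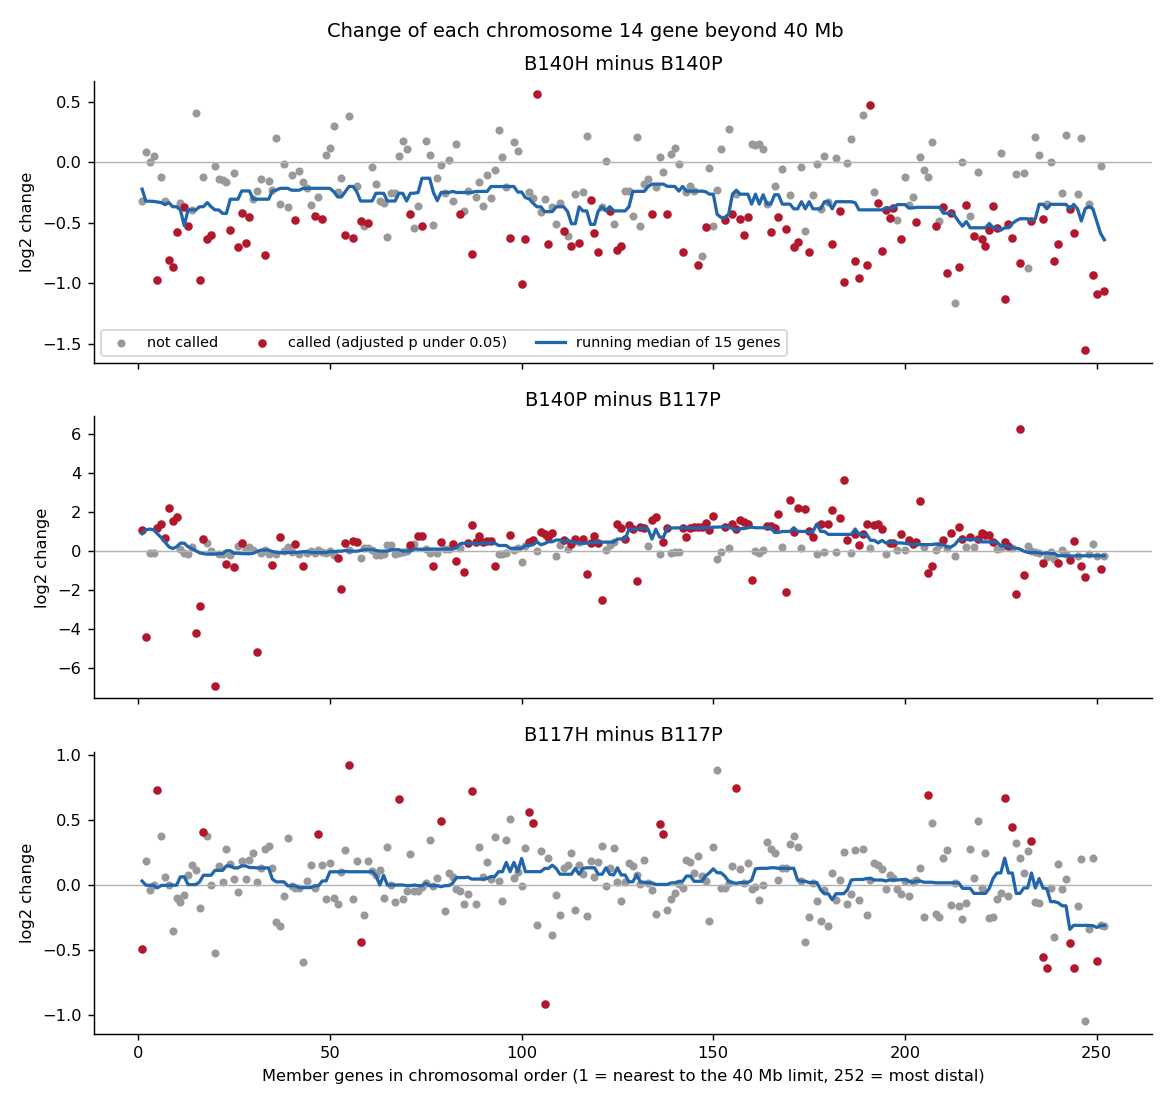
Log2 change of each of the 252 genes (points) in order along the chromosome, for B140H minus B140P, B140P minus B117P and B117H minus B117P, with a running median over 15 genes; red points were called at an adjusted p under 0.05. In B140H 206 points lie below 0, the parental lines differ most in the middle of the stretch, and in B117H 107 of 252 points lie below 0.

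The called genes with the largest falls in B140H included 3 near the far end, Gpr183, Pcca and Tmtc4, and genes of signalling and metabolism. Gpr183 (chr14:121952331-121965193) encodes a receptor for oxysterols that guides lymphoid and myeloid cells. It read 9.44, 8.03 and 8.61 in B140P and 7.56, 7.21 and 6.66 in B140H. All B140H arrays were below all B140P arrays, a change of −1.55 ± 0.30 (95% interval −2.20 to −0.90). Gpr183 also read 10.17, 9.78 and 10.14 in B117P and 9.21, 8.96 and 8.77 in B117H, a difference of −1.05 ± 0.30 that was not called (limma adjusted p = 0.0569). Its second, dimmer probe set differed by −0.47 in the B140 pair and −0.49 in the B117 pair.

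Tbc1d4 (chr14:101442360-101609281) encodes a Rab GTPase-activating protein that holds glucose transporters inside the cell. Its levels were 8.19, 8.35 and 8.02 in B140P and 6.99, 7.04 and 7.15 in B140H, a change of −1.13 ± 0.11. In the B117 pair the order was turned, with 7.89, 7.66 and 7.58 in B117P and 8.32, 8.38 and 8.44 in B117H. A second probe set of Tbc1d4, at a mean level of 7.32, changed by −0.06 and 0.09 in these pairs. Pcca (chr14:122484365-122889944), the alpha subunit of propionyl-CoA carboxylase, read 10.94, 11.13 and 10.99 in B140P and 9.89, 10.03 and 9.87 in B140H, a change of −1.09 ± 0.09. Its neighbour Tmtc4 (chr14:122918971-122983285), a transferase that adds mannose to proteins in the endoplasmic reticulum, read 10.34, 10.26 and 10.35 against 9.38, 9.10 and 9.30, a change of −1.06 ± 0.10. Neither gene's arrays overlapped between B140P and B140H. A second probe set of Pcca, at a mean level of 7.44, changed by −0.03 in the B140 pair and did not show the fall. Rgcc, a regulator of the cell cycle mentioned for its size after its values were seen, changed by −1.16 ± 0.33 and was not called, while its second probe set changed by −0.79 and was called.

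Dok2 (chr14:70765889-70778494) encodes an adaptor that restrains tyrosine kinase signalling in myeloid cells. It read 11.52, 11.50 and 11.63 in B140P and 10.60, 10.58 and 10.50 in B140H, a change of −0.99 ± 0.13. In B117P it was far lower, at 7.69, 7.86 and 8.17, and in B117H it read 8.11, 7.998 and 8.38. Dok2 in B140H thus stayed above both B117 lines. Txndc16 (chr14:45134448-45219551), an endoplasmic reticulum protein with thioredoxin domains, read 9.32, 9.42 and 9.35 in B140P and 8.45, 8.18 and 8.53 in B140H, a change of −0.97 ± 0.12. Gch1, the first enzyme of tetrahydrobiopterin synthesis, changed by −0.97 ± 0.15, and Mcpt8, a basophil protease, by −1.01 ± 0.21. Mcpt8 was the 1 gene of the 252 in a list of 14 mast cell and cytotoxic granule proteases.

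**Figure D3:**
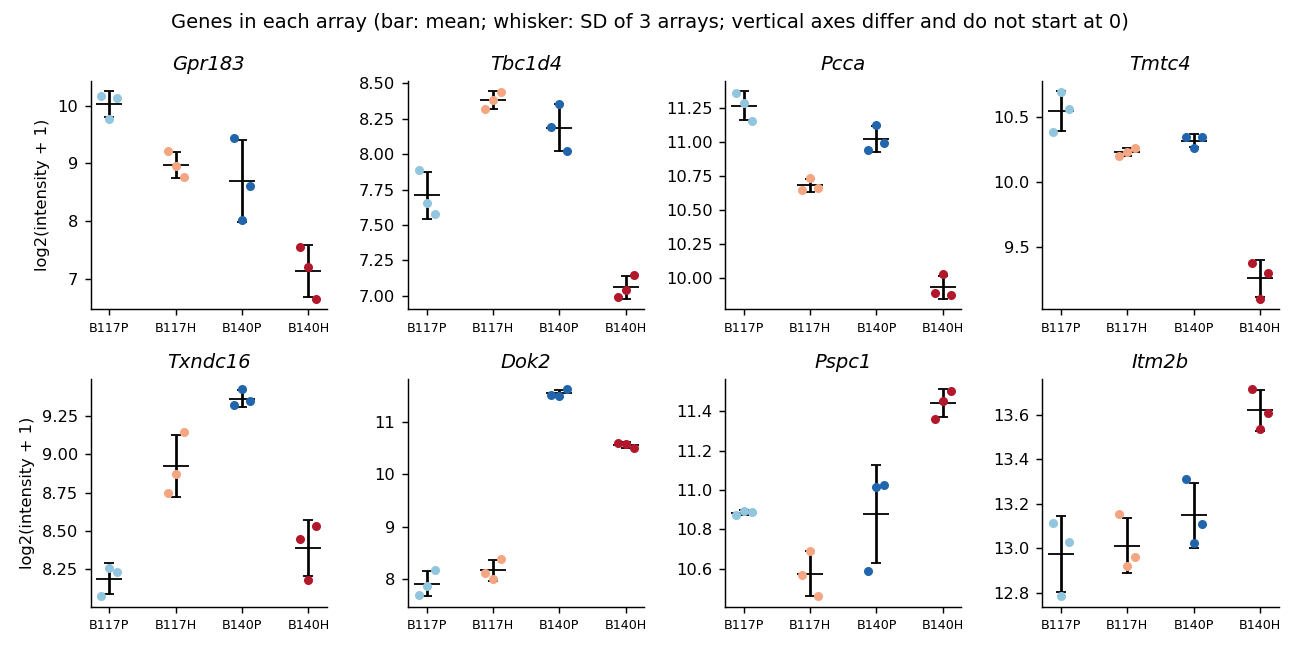
Levels of 8 genes of the stretch in log2(intensity + 1) in the 4 lines; each point is 1 array, the bar the mean and the whisker the SD of 3 arrays, and vertical axes differ between genes. Gpr183, Tbc1d4, Pcca, Tmtc4, Txndc16 and Dok2 are lower in B140H than in B140P without overlap, and Pspc1 and Itm2b are higher.

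The shift in B140H ran along the stretch from 45 Mb on. In windows of 5 Mb, the 4 genes between 40 and 45 Mb had a median change of 0.03, and the 25 genes between 45 and 50 Mb had a median of −0.42, with 14 called lower. In the windows of 10 Mb, the medians lay between −0.54 and −0.24. They were −0.37 for 40 to 50 Mb, −0.29 for 50 to 60, −0.24 for 60 to 70, −0.39 for 70 to 80 and −0.49 for 120 to 130 Mb. The 35 to 40 Mb window before the limit held 3 genes, with a median of 0.22, and the 30 to 35 Mb window held 42, with a median of 0.04 and none called lower. The last 2 genes before the limit were Ghitm (37.12 Mb), which changed by −0.16, and the locus LOC432842 (39.47 Mb), which changed by 0.22. The first 2 past it were Tspan14 (40.91 Mb), which changed by −0.32, and Prxl2a (40.99 Mb), which changed by 0.08. At the level limit, Scara5 (6.942) and Trav12n-2 (6.949) stood just outside, with changes of 0.11 and 0.14, and Spry2 (6.953) just inside, with 0.06. The few genes between 35 and 45 Mb do not place a border.

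The parental lines differed along the same stretch, most of all in its middle. B140P was higher than B117P by a median of 0.22 over the 252 genes, with 110 called higher and 30 lower, against 17.9% higher and 16.8% lower among all 11321 genes. All 3 B140P arrays lay above all 3 B117P arrays for 130 genes, against 27.7% of all genes. This comparison shares the B140P arrays with the change in B140H and the B117P arrays with the change in B117H, so it does not stand apart from them. Of the 94 genes called lower in B140H, 58 were called higher in B140P than in B117P and 6 lower, beside 110 and 30 of all 252. High B140P readings favour both calls, and the same overlap over all 11321 genes was not counted. No excess is therefore read from the 58. Between 60 and 70 Mb the median difference was 1.19 (45 genes, 30 called higher and 2 lower), and between 70 and 80 Mb it was 0.56 (51 genes, 31 higher and 3 lower). Between 40 and 50 Mb it was 0.10, between 50 and 60 Mb 0.07, and between 120 and 130 Mb −0.24. Among genes with a mean level above 8, all 31 between 60 and 70 Mb were higher in B140P, with a median of 1.23, and 28 were called.

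Placed against B117P, the window medians put the lines in order. Between 60 and 70 Mb B140P stood 1.19 above B117P and B140H 0.66 above it, with B117H at 0.04. Between 70 and 80 Mb the values were 0.56 for B140P, 0.21 for B140H and 0.03 for B117H. B140H thus stood above B117P and below B140P in both windows. In other windows with 10 or more genes B140H was below B117P, by −0.24 between 40 and 50 Mb, by −0.10 between 50 and 60 Mb, by −0.46 between 100 and 110 Mb and by −0.70 between 120 and 130 Mb.

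**Figure D4:**
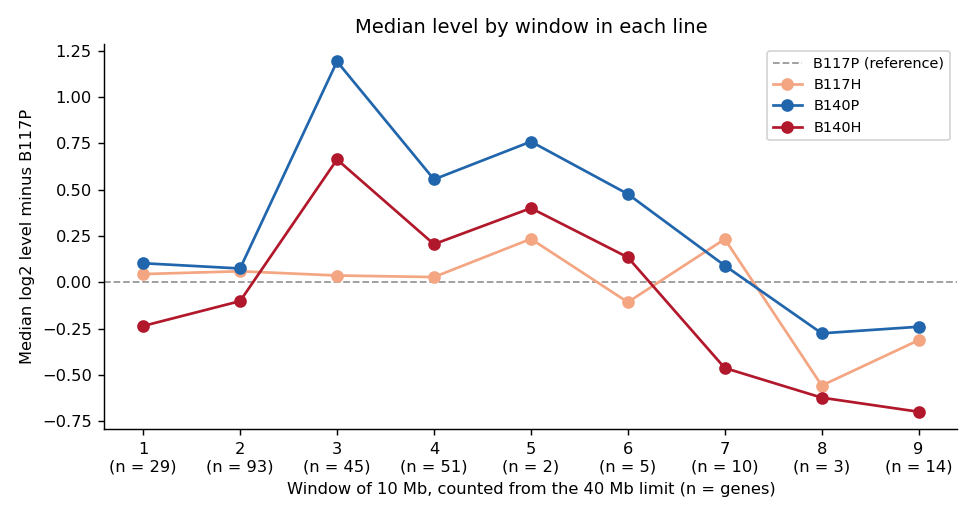
Median log2 level of the genes in each window of 10 Mb relative to B117P, with windows counted from the 40 Mb limit and 1 line of points per cell line; n is the number of genes in the window. B140P (1.19) and B140H (0.66) stand above B117P in the third window, and B140H lies at −0.70 in the last.

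Single genes of the parental comparison went far beyond the window medians, in both directions. Pou4f1 (chr14:104461675-104468118), a POU-domain transcription factor, read 11.996, 12.20 and 12.14 in B140P and 11.15, 11.24 and 11.44 in B140H. It read 5.40, 6.11 and 6.06 in B117P and 5.81, 5.89 and 6.49 in B117H. The B117 levels lie under the level limit, and without detection calls they cannot be told from background, so Pou4f1 met the rule only through the B140 lines. As measured, the parental lines differed by 6.26, with no overlap. Lgals3 (chr14:47373860-47386167), which encodes the sugar-binding protein galectin-3 of macrophages, went the other way. It read 12.19, 12.76 and 12.94 in B117P and 12.28, 11.51 and 12.52 in B117H, against 6.24, 5.62 and 5.35 in B140P and 6.04, 5.68 and 5.39 in B140H. As measured, B140P differed from B117P by −6.90, and Lgals3 met the rule only through the B117 lines, since its B140 levels lie under the limit. Galectin-3 RNA thus separated the lineages without overlap and overlapped within each pair.

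Other genes low in both B140 lines were Ccnb1ip1, a ubiquitin ligase of meiotic crossing-over (−5.15 in B140P against B117P), Prxl2a (−4.40) and Samd4, an RNA-binding repressor of translation (−4.20). Their levels in B140P (5.98, 5.07 and 5.71) also lie under the limit, so these 3 differences are set against values that may be background. In the windows where B140P stood highest, 5 genes were called lower in B140P. Among them, Bin3 was −2.11, Trim13 was −1.52, Dock5 was −1.49 and Lacc1 was −1.14, each at log2 scale. Trim13 lies near Dleu2 (1.22), Kpna3 (1.36) and Spryd7 (1.13), which were called higher. High in B140P were Dok2 (3.64 ± 0.13), Ccar2, an inhibitor of the deacetylase Sirt1 (2.61), Tsc22d1, a leucine zipper protein (2.58), Pdlim2 (2.22), the pseudophosphatase Styx (2.21), the calcineurin subunit Ppp3cc (2.16) and Fam160b2 (2.12). Of these, Dok2, Pdlim2 and Styx were called lower in B140H, and Tsc22d1 read 0.04 ± 0.18 there.

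In the B117 pair the stretch as a whole stayed near 0. The median change in B117H was 0.03 over the 252 genes and 0.01 over all genes. The limma fit called 16 genes higher and 8 lower, against 6.65% higher and 6.90% lower among all genes, which is about the background upward and below it downward. Normalized again by quantiles, the counts were 14 higher and 11 lower. Without B117H array C only 14 genes were called, and without B117P array C only 15. Slc7a7, a transporter of cationic amino acids, read 7.29, 7.44 and 7.12 in B117P and 8.12, 7.85 and 8.65 in B117H. Its rise of 0.93 ± 0.20 (limma adjusted p = 0.0112) was not called without B117P array C (adjusted p = 0.0579). Dpysl2, which binds tubulin, read 11.30, 11.35 and 11.37 in B117P and 12.10, 12.12 and 12.05 in B117H, a rise of 0.75 ± 0.08 (limma adjusted p = 6.89e-05). Mdp1, a magnesium-dependent phosphatase, rose from 9.26, 9.19 and 9.12 to 9.91, 9.92 and 9.91, by 0.72 ± 0.08 (limma adjusted p = 0.000111).

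The far end of the chromosome was lower in B117H too. Between 110 and 120 Mb all 3 genes were below 0, with a median of −0.56, and between 120 and 130 Mb 10 of 14 genes were, with a median of −0.31. The 5 genes called there were all lower, while between 60 and 110 Mb 7 genes were called and all were higher. Gpr180, a membrane protein, read 10.21, 10.36 and 10.01 in B117P and 9.54, 9.63 and 9.49 in B117H, and fell by 0.64 ± 0.11 (limma adjusted p = 0.00209). Its neighbour Tgds, a dehydratase of nucleotide sugars, read 10.63, 10.44 and 10.48 against 9.999, 9.87 and 10.01, and fell by 0.56 ± 0.10 (limma adjusted p = 0.00266). Pcca read 11.36, 11.29 and 11.16 in B117P and 10.65, 10.73 and 10.66 in B117H, and fell by 0.59 ± 0.09 (limma adjusted p = 0.0014). For none of these 3 did the arrays of B117P and B117H overlap. The second, dimmer probe set of Pcca changed by −0.03 in this pair too, so its fall rests on 1 probe set. Dock9, an activator of the GTPase Cdc42, fell by 0.64 ± 0.12 (limma adjusted p = 0.00642), a call that was lost when probe sets that can match several transcripts were left out (adjusted p = 0.186). Stk24, a kinase of the germinal centre family, fell by 0.45 ± 0.09 (limma adjusted p = 0.00575).

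Of the 252 genes, 24 were called in the B117 pair and 96 in the B140 pair, with 10 called in both. The same overlap over all genes was not counted, so the 10 are only described here, by direction. Rem2, Tgds, Stk24, Dock9 and Pcca were lower in both resistant lines, and all but Rem2 lie past 110 Mb. Their changes in B117H and B140H were −0.44 and −0.49 for Rem2, −0.56 and −0.47 for Tgds, −0.45 and −0.38 for Stk24, −0.64 and −0.59 for Dock9, and −0.59 and −1.09 for Pcca. A second probe set of Stk24 read −0.79 in the B117 pair and −0.02 in the B140 pair, so its fall in B140H was not seen by both. Txndc16, Mdp1, Tbc1d4, Mycbp2 and Ndfip2 were higher in B117H and lower in B140H. Their changes were 0.73 and −0.97 for Txndc16, 0.72 and −0.76 for Mdp1, 0.67 and −1.13 for Tbc1d4, 0.45 and −0.62 for Mycbp2, a large ubiquitin ligase, and 0.34 and −0.48 for Ndfip2, an adaptor of Nedd4 ligases. A second probe set of Ndfip2, at a mean level of 7.22, went the other way in both pairs (−0.10 and 0.25), and with its probe sets averaged Ndfip2 was called in neither. Averaged over their probe sets, Mdp1, Mycbp2, Tbc1d4 and Pcca were not called in the B117 pair, with values of 0.41, 0.24, 0.38 and −0.31. No gene was called higher in both. Changes of the 2 pairs come from different arrays.

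The difference between the lineages, the change in B140H minus that in B117H, had a median of −0.41 over the stretch and 0.02 over all genes. It was called below 0 for 76 genes and above 0 for 2, against 8.07% and 7.15% of all genes. The 2 genes above 0 were Pspc1 (0.88 ± 0.17) and 2410022M11Rik (0.61), the latter outside the naming rule and named because the count is small. The count of 78 was 48 without B140P array B. For the 4 far-end genes called lower in both pairs, the difference was 0.09 ± 0.13 for Tgds, 0.06 ± 0.12 for Stk24, 0.05 ± 0.18 for Dock9 and −0.50 ± 0.13 for Pcca. Of these only Pcca was called, and its second, dimmer probe set had a difference of 0.0015. The 95% interval for Dock9 ran from −0.33 to 0.43, and a second probe set of Stk24 had a called difference of 0.77. Between 110 and 120 Mb all 3 genes had a difference above 0, with a median of 0.09.

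**Figure D5:**
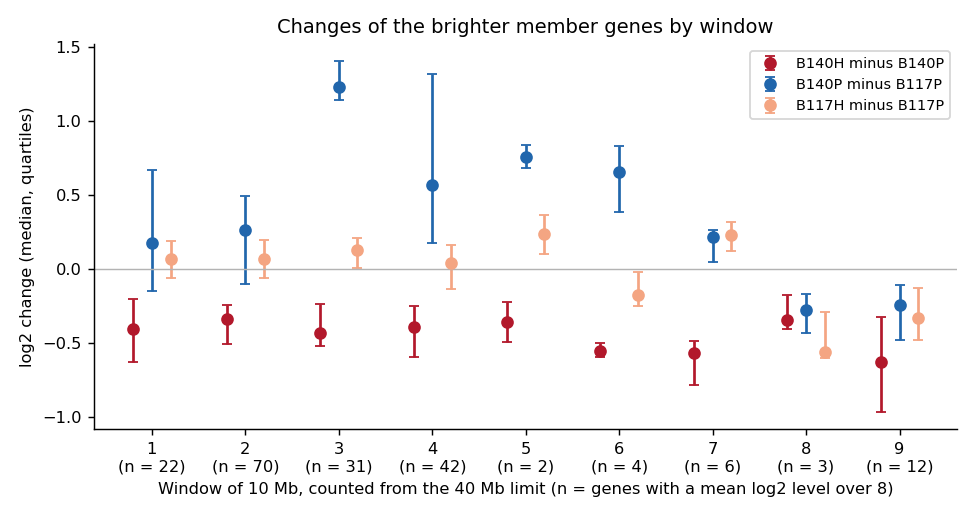
Median log2 change (points) with quartiles (whiskers) of the genes with a mean level above 8 in each window of 10 Mb, counted from the 40 Mb limit, for the 3 comparisons between lines. B140H minus B140P is below 0 in all 9 windows, B140P minus B117P peaks in the third window at 1.23, and B117H minus B117P is lowest in the eighth, at −0.56.

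The genes were also read by function, over lists that held 160 of the 252 genes. No list is more than a sorting of neighbours, and the shares below stand beside the 94 of 252 called lower in B140H. For the B117 pair the counts stand beside 16 higher and 8 lower of the 252, and 6.65% and 6.90% of all genes. For B140P against B117P they stand beside 110 higher and 30 lower of the 252, and 17.9% and 16.8% of all genes. Lists are small, and no list is read as apart from these shares. In the ubiquitin list, 8 of 19 genes were called lower in B140H and none higher, with a median of −0.39. They included Rcbtb2 (−0.95), Mycbp2 (−0.62), the co-chaperone Sugt1 (−0.61, and −0.05 by a second probe set) and Ndfip2 (−0.48). The same list was called higher in B140P than in B117P for 8 genes and lower for 2, among them Rhobtb2 (1.89) and Trim35 (1.42) upward and Trim13 (−1.52) downward.

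Of 17 genes of mitosis and the cell cycle, 9 were called lower in B140H, with a median of −0.50. Mzt1, which helps to recruit gamma-tubulin rings, changed by −0.70, the kinetochore protein gene Ska3 by −0.69, the centriole gene Cenpj by −0.64 and Cdca2, which steers a phosphatase to chromosomes, by −0.60. Cdca2 (−0.35) and Stk24 (−0.20) were not called when their probe sets were averaged. In the B117 pair 1 of the 17 was called, Stk24. Of 8 genes listed under DNA replication, repair and telomeres, all were below 0 in B140H but only Pinx1 (−0.42) and Setdb2 (−0.31) were called. Setdb2 encodes a histone methyltransferase, so its place in this list is loose. In B117H 2 of these 8 were called higher, Parp4 (0.56 ± 0.13) and the replication factor gene Wdhd1 (0.40 ± 0.10), though Parp4 was not called with its probe sets averaged (0.33).

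All 20 genes of RNA processing were below 0 in B140H and 11 were called, with a median of −0.43. The splicing regulator Mbnl2 changed by −0.81, the tRNA-modifying enzyme gene Osgep by −0.77, Tdrd3 by −0.63 and Khnyn by −0.62. With probe sets averaged, Mbnl2 (−0.33), Osgep (−0.21) and Tdrd3 (−0.10) were not called. The second probe sets of Osgep, Tdrd3 and Khnyn were dim, at 7.17, 7.07 and 7.39, and changed by −0.06, −0.015 and −0.29. None of the 20 was called in the B117 pair, and 10 were called higher in B140P than in B117P, among them the Integrator subunits Ints6 (1.60) and Ints9 (1.25). Of 17 genes of chromatin and transcription factors, 2 were called lower in B140H, Zmym2 (−0.67) and the acetyltransferase-like gene Elp3 (−0.53). Of 5 genes of nuclear import and export, the exportin genes Xpo4 (−0.57) and Xpo7 (−0.40) were called lower in B140H, and 4 were called higher in B140P than in B117P, led by Xpo7 (1.69) and Kpna3 (1.36). The Xpo7 fall was not called with its probe sets averaged (−0.16), though a second probe set, at a mean level of 9.73, changed by −0.48 and was called.

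Of 25 genes of mitochondria and metabolism, 24 were below 0 in B140H and 14 were called, with a median of −0.48. After Pcca and Gch1, the largest falls were Clybl, a mitochondrial citramalyl-CoA lyase (−0.93), and Naa16, an auxiliary subunit of an N-terminal acetyltransferase (−0.87). In B117H Mdp1 was called higher and Pcca and Tgds lower. All 17 genes of membrane traffic and glycosylation were below 0 in B140H and 11 were called, among them Tbc1d4, Txndc16, the heparan sulfate enzyme gene Extl3 (−0.85) and the palmitoyltransferase gene Zdhhc20 (−0.67). Of 31 genes of leukocyte signalling, receptors and the cytoskeleton, 13 were called lower in B140H and 1, Itm2b, higher. After Gpr183 and Dok2 came Dgkh, a diacylglycerol kinase (−0.91), and Lpar6, a lysophosphatidic acid receptor (−0.85). A second probe set of Dgkh, at a mean level of 8.45, changed by 0.02 and did not show the fall. This list was split between the parental lines, with 9 called higher and 8 lower in B140P.

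A second probe set was measured above the level limit for 110 of the 252 genes. In the B140 pair 93 of these 110 were below 0, with a median of −0.32 against −0.45 for the brighter probe sets of the same genes, and 96 had the sign of the brighter one. In the parental comparison 96 of 110 had the same sign, and in the B117 pair 76.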

How the data were processed

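The deposited intensity values are RMA-summarised probe-set intensities on a linear scale, 1 column per array; RMA is named per the submitters' processing notes and its version is not given in the sources used here. The linear scale was read from the values. Folds and levels are on the log2(value + 1) scale. RMA compresses differences among low values. Of 45101 probe sets, 64 were array controls and not used, and 34945 of the others had 1 gene symbol in the platform annotation, 932 several and 9160 none. The RefSeq table (GRCm38.p6) gave positions for 18145 of 18193 genes. The genome build of the array design is not given in the sources used here.

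limma 3.58.1 in R 4.3.3 fitted 1 coefficient per line to all 12 arrays (two-sided, with a residual SD of 0.154 log2 units at the median), and p-values were Benjamini-Hochberg adjusted over 45037 probe sets. A gene was called at an adjusted p under 0.05. The number of arrays limits the precision: the median probe set had a 95% interval of a factor of 1.20. Deviations of same-letter arrays (A, B and C) correlated at 0.56, 0.028 and 0.39 in the B117 pair and 0.59, 0.36 and 0.56 in the B140 pair. Between the parental lines the correlations were 0.50, 0.13 and 0.41. Between the resistant lines they were 0.45, 0.35 and 0.53. Array B was weak in the B117 pair and between the parental lines, which share the B117P arrays, so pairing by letter was not settled. Named were the 8 called genes with the largest non-overlapping rise and fall per comparison, the leading 4 per list, those called in both pairs, those at the limits and the leaders of each window. Members and lists were chosen with earlier results of these data known. Some genes are not reported here.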

Additional observations from a re-analysis of the deposited data

Results flagged for a closer look

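For 9 genes of the stretch, the change in the B140 pair differed from that in the B117 pair by limma's test of the difference itself. They are the 8 with the largest difference below 0 and the 1 named gene above 0. The difference was -1.80 for Tbc1d4, -1.71 for Txndc16, -1.48 for Mdp1, -1.24 for Dok2 and -1.18 for Dgkh (log2, change in B140H minus change in B117H). It was -1.14 for Clybl, -1.13 for Khnyn and -1.08 for Fndc3a, a fibronectin-domain protein gene, and 0.88 for Pspc1. Second probe sets of Tbc1d4, Dgkh, Fndc3a and Khnyn gave differences of -0.14, 0.13, -0.07 and -0.20, none called. They did not show differences of the size seen by the brightest probe sets, while the second probe set of Mdp1 gave -1.30. For Dok2, Dgkh and Fndc3a the B117 arrays overlapped between B117P and B117H, whereas the B140 arrays did not. The stretch was selected on the B140 change, which is part of each of these differences.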

How the results depend on the processing

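Main counts of called genes were 24 in the B117 pair, 96 in the B140 pair, 140 between the parental lines and 78 for the difference between the lineages. With array weights the B117 count was 37. At an adjusted p under 0.01 the counts were 13, 49 and 32 for the B117 pair, the B140 pair and the difference. Fitted on its own 6 arrays, the B140 pair gave 50. Leaving out 1 array gave 14 to 28, 51 to 101, 127 to 144 and 48 to 80. With the array letter as a replicate block the counts were 34, 126, 151 and 108, every gene called without it was still called, and none of these moved by over 1.5 times. The parental count stayed between 124 and 153 at every setting run. Of single genes, Tdrd3 had a difference between lineages of 0.0038 when a gene's probe sets were averaged, against a value below 0 for its brightest probe set; the cause was not tested. Of the named genes, 8 of 21 in the B117 pair, 17 of 39 in the B140 pair and 48 of 49 between the parental lines were called at every setting. For the difference between the lineages it was 19 of 34. Low signal over background limits the dim genes.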
